A study of Mus musculus with 13 samples.

Results

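PAD in NPC only is the autosomal DNA that was called a pericentromere-associated domain (PAD) in neural precursor cells (NPCs) and non-PAD in embryonic stem cells (ESCs), astrocytes (ACs) and thymus. Its members were chosen by the calls themselves. Every autosomal fragment end with this pattern was taken, consecutive ends were merged, and borders were placed midway to the next end with another pattern. This gave 906 regions of 7813 runs of all patterns, with 53343 of 374542 autosomal fragment ends and 391 Mb, or 16.2% of the called autosomal sequence. Their number, size, neighbors and coverage follow from the rule and are given as a description, without a test.

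In mouse nuclei the pericentromeric satellite repeats of several chromosomes cluster into chromocenters, which are compact heterochromatin bodies. Pericentromeric heterochromatin carries HP1 proteins, DNA methylation and methylated histone H3 lysine 9, and stretches of chromosome arms can be positioned next to it. Sat4C is a chromosome conformation capture assay that takes the major satellite repeat as its viewpoint, so that an arm fragment is recovered when it was ligated to satellite DNA. A PAD is thus a stretch of a chromosome arm that was recovered often with satellite repeats. A call gives neither the fraction of cells in contact nor the strength of the contact, and the 2 cannot be told apart here.

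The assay was made on thymus tissue of 3 C57BL/6 adult male mice (6 sets of reads), on IB10 (129/Ola) ESCs (3 replicates), and on NPC (2 replicates) and AC (2 replicates) lines of the same IB10 origin. The NPCs were derived from the ESCs in culture and the ACs from the NPCs, and the 3 cultured types have 1 genetic origin, whereas the thymus is another strain and a mixed tissue. No treatment or engineered allele separates the groups. The file analysed here holds 1 consensus call per cell type for each fragment end and 0 columns per replicate, so depth, spread between replicates and expression of marker genes could not be examined, and the identity of the NPCs could not be checked against markers.

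The NPC column covered more sequence than the other 3 before any rule was applied. It called 69.3% of the autosomal sequence PAD, against 52.8% in ESCs, 50.1% in ACs and 48.1% in thymus. NPC calls were the same as ESC calls at 68.3% of autosomal ends, as AC calls at 66.6% and as thymus calls at 52.9%, where independent columns with these shares of PAD would give 52.1%, 51.7% and 51.0%. ESC and AC calls were the same at 78.4% of ends and AC and thymus calls at 75.9%, but ESC and thymus calls at only 68%, about as often as NPC and ESC calls. Moving the NPC column by 100 rows lowered the agreement with ESCs to 61.8% in one direction and 62.2% in the other, and moving it by 1 row left it at 68.3%. The part that library depth or the number of replicates played in the NPC coverage was not tested, and every value below holds for the NPC column as deposited. The class rests on this excess of NPC calls, and whether the column is the final consensus of the study could not be settled from the file. Under the stated procedure, a disagreement between the 2 NPC replicates was decided by pooled reads and not by a majority. The same held for the 2 AC replicates.

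The unit of the data is the fragment end, a short piece between an MfeI site and the nearest NlaIII site. The following 7 ends show the kind of piece that was called, as reference sequence and not as reads. Each is the end nearest to the center of its region that measured 40 to 150 bases from site to site, in mm9 and read 5′ to 3′, with the MfeI site CAATTG and the NlaIII site CATG in capitals. The first 4 lie in large regions of PAD in NPC only, which held *Notch1*, *S100b*, *Hes5* and *Lmnb2*, and the last 3 in the largest regions of Chromosomes 2, 10 and 4 that were PAD in all 4 cell types.
Region with Notch1, chr2:27515807-27515865, plus strand: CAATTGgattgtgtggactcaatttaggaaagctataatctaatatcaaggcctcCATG
Region with S100b, chr10:75744954-75745093, plus strand: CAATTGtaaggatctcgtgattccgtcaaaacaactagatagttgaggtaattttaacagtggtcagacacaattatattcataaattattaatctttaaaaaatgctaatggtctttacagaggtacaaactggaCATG
Region with Hes5, chr4:154070031-154070079, plus strand: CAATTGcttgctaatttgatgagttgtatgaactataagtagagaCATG
Region with Lmnb2, chr10:80354807-80354924, plus strand: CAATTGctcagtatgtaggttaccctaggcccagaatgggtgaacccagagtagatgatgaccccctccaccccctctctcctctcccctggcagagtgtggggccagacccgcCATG
PAD in all 4, Chromosome 2, chr2:15516534-15516593, plus strand: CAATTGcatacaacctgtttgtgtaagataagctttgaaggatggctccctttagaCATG
PAD in all 4, Chromosome 10, chr10:48303180-48303230, plus strand: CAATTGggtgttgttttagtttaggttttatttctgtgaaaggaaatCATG
PAD in all 4, Chromosome 4, chr4:16255574-16255682, plus strand: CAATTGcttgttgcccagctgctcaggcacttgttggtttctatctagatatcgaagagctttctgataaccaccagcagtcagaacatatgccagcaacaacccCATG
The 4 ends of PAD in NPC only had a GC content of 37.3%, 31.4%, 32.7% and 59.3%, and those of PAD in all 4 had 40%, 31.4% and 46.8%. Ends chosen in the same way from the rest of the 10 largest regions had 46.6%, 54.2%, 53.7%, 34.1%, 51.9% and 53.1%. Single ends of both patterns thus overlapped in composition, though most of these further ends lay above 46.8%. An MfeI site stood at the start of 50.1% of the ends in PAD in NPC only and an NlaIII site at the start of 48.7%, against 49.9% and 47.9% over all autosomal ends.

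The regions ranged from 0.0780 kb to 4.65 Mb. They measured 244 kb in the median (97.8 kb at the lower and 571 kb at the upper quartile), with a median of 35 fragment ends. A total of 38 regions were under 10 kb and 18 rested on a single fragment end. At the other extreme, 100 regions of over 1 Mb held 42.1% of the sequence, and 23 were over 2 Mb. Much of the sequence therefore lay in these 100 regions, while the count of regions was carried by smaller ones.

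The 10 largest regions held between 3.14 and 50.5 protein-coding genes per Mb. The largest covered Chromosome 2 from 25197560 to 29848379 (4.65 Mb, 531 ends) and held 113 protein-coding genes, among them *Notch1*, which encodes a Notch receptor, and the ribosomal protein gene *Rpl7a*. The longest of its genes was *Med27* (178 kb), which encodes a Mediator subunit. The next covered Chromosome 10 from 73862042 to 77567106 (3.71 Mb, 75 genes), with *S100b*, an astrocytic calcium-binding protein, and *Dnmt3l*, a cofactor of DNA methylation in germ cells and ESCs. A region of 3.63 Mb on Chromosome 5 (35344477 to 38970041) held 42 genes, of which the sorting receptor gene *Sorcs2* (381 kb) was the longest. A second region of Chromosome 2 (30676545 to 34213111, 3.54 Mb) held 65 genes, with the transcription elongation kinase gene *Cdk9*. On Chromosome 9 (118805982 to 122049427, 3.24 Mb) 51 genes included *Mobp*, which encodes a myelin protein. The distal end of Chromosome 4 (152408356 to 155628889, 3.22 Mb) held 71 genes and formed an NPC PAD of its own, with *Hes5*, a Notch target that keeps precursors undifferentiated.

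The smaller 4 of these regions differed widely in gene content. On Chromosome 10 from 78959011 to 81746634 (2.79 Mb), 140 genes gave 50.2 genes per Mb, the most genes of any of the 906 regions, and they included *Lmnb2*, which encodes B-type lamin B2, the methyl-CpG-binding family gene *Mbd3* and the elongation factor gene *Eef2*. On Chromosome 19 from 3862866 to 6495671 (2.63 Mb), 133 genes gave 50.5 per Mb, including the nuclear envelope gene *Banf1* and the synaptic gene *Nrxn2*. The region on Chromosome 15 (84614144 to 87159676, 2.55 Mb) held 22 genes, or 8.64 per Mb, among them the Wnt ligand gene *Wnt7b*. The region on Chromosome 1 (84809146 to 87674630, 2.87 Mb) held 9 genes on only 61 ends, because 69.8% of its reference sequence is undetermined and 1 interval without ends measured 2149 kb. Its size is therefore mostly that of an assembly gap. In all, 17 regions contained an interval of over 100 kb without a fragment end.

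Every autosome held PAD in NPC only, in unequal amounts. Its share was highest on Chromosome 10 (24.4%, 59 regions) and Chromosome 11 (24.1%, 55 regions), followed by Chromosome 1 (20.9%) and Chromosome 2 (20.2%). It was lowest on Chromosome 8 (8.48%, 38 regions) and Chromosome 14 (9.47%, 35 regions). Chromosome 17 had 31 regions on 13.9% of its sequence, the largest of 2.02 Mb. Across the 19 autosomes the share was hardly related to the gene density of the chromosome, with a Pearson r of 0.16, a Spearman rho of 0.17 and an r of 0.10 without the 2 chromosomes farthest from the median gene density. These are descriptions over chromosomes that share their libraries.

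**Figure D1:**
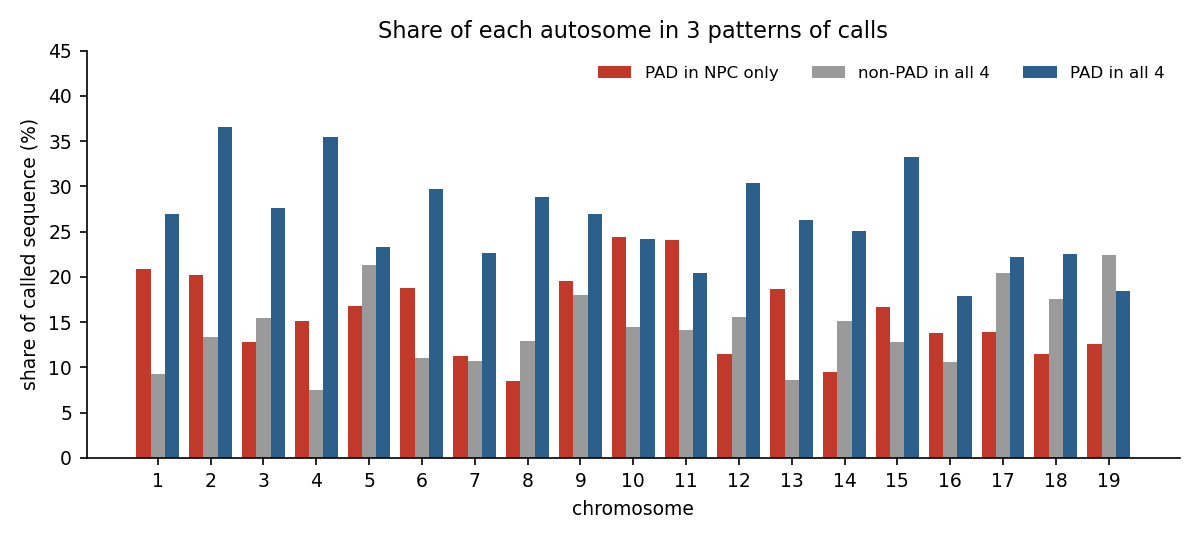
Bars give, for each of the 19 autosomes, the percentage of the called sequence that was PAD in NPC only (red), non-PAD in all 4 cell types (grey) and PAD in all 4 (blue). The red bars run from 8.48% on Chromosome 8 to 24.4% on Chromosome 10, where they match the share that was PAD in all 4 cell types (24.2%).

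The pattern was more frequent toward the distal ends of the chromosomes. It made up 8.43% of the first 10 Mb of called sequence next to the centromere, 11.1% of the sequence from there to 50 Mb, 18.3% of the remaining inner sequence and 29.9% of the last 10 Mb. Single chromosomes ranged from 0% to 40.2% in the first 10 Mb and from 9.19% to 54.9% in the last 10 Mb, so the ranges overlapped widely. Sequence that was non-PAD in all 4 cell types followed the same order, with 4.31%, 10.3%, 15.6% and 24.8%.

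Sequence that was non-PAD in ESCs, ACs and thymus alike was PAD in NPCs over about as much sequence as it was non-PAD. It amounted to 723 Mb, or 29.9% of the autosomes, and 54.0% of it was PAD in NPCs. This share was 61.4% where 1 of the 3 other cell types had a PAD, 74.5% where 2 had one and 86.0% where all 3 had one, against 69.3% over all autosomes. By chromosome, the part of the 3-way non-PAD sequence that was PAD in NPCs ran from 36.0% on Chromosome 19 to 69.3% on Chromosome 1. No other cell type had a comparable amount of PAD of its own. PAD in ESCs only covered 1.63% of the autosomes, in ACs only 0.549% and in thymus only 5.74%. As a share of the PADs of each cell type, these were 23.3% in NPCs, 3.09% in ESCs, 1.10% in ACs and 12% in thymus.

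Most regions of PAD in NPC only adjoined sequence that was also PAD in NPCs and in a further cell type. Of 1058 autosomal NPC PADs, 531 held some of it, 246 were made of it by more than 50% and 113 consisted of nothing else. The median NPC PAD that held some measured 1.18 Mb, the 113 entire ones had a median of 361 kb, and the 527 that held none had a median of 534 kb. By the same count, 113 of the 906 regions (16.4% of the sequence) were bordered by NPC non-PAD or a chromosome end on both sides. A further 418 (39.7%) continued into an NPC PAD on 1 side and 375 (43.9%) on both. Some NPC PADs with NPC-only sequence spanned PADs that another cell type kept apart. At least 2 separate ESC PADs were touched by 198, at least 2 AC PADs by 151 and at least 2 thymus PADs by 111. These counts follow from the calls that the rule used. No such count is given for the 527 NPC PADs without NPC-only sequence.

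The borders showed which cell type changed its call. Of 1812 borders, 666 (36.8%) lay where the ESC call became PAD and 641 (35.4%) where the NPC PAD ended. At 328 borders (18.1%) the AC call became PAD and at 161 (8.89%) the thymus call did, while 13 changed in several cell types at the same position and 3 were chromosome ends. The most frequent arrangement, in 227 regions, had a PAD of ESCs and NPCs on one side and shared non-PAD on the other. In 147 regions both neighbors were PAD in ESCs and NPCs, and in 112 both were non-PAD in all 4 cell types. The sequence stretches of single fragment ends in PAD in NPC only lay at a median of 287 kb from the nearest PAD of another cell type, weighted by sequence. Within 100 kb lay 23.8% and beyond 1 Mb 14.5%, and for non-PAD in all 4 cell types the median was 415 kb, with 15.8% and 20.7%.

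The NPC PAD with the most NPC-only sequence shows this arrangement. It covered Chromosome 10 from 70223087 to 81746634 (11.5 Mb), and 7.38 Mb of it (64.0%) in 3 regions was PAD in no other cell type. An AC PAD of 2.66 Mb and a thymus PAD of 2.66 Mb lay between the first and the second region, together with 4 ESC PADs, the smallest on a single fragment end (78 bases). An ESC PAD of 1.39 Mb and an AC PAD of 1.12 Mb lay between the second and the third region, where the thymus had none. Within this NPC PAD, 19.8% was PAD in ESCs, 32.8% in ACs and 23% in thymus. It held 252 protein-coding genes, 221 of them in the NPC-only regions. The 3 regions differed in this respect, with 6 genes in the first (0.886 Mb), 75 in the second and 140 in the third. Between 68 and 82 Mb of this chromosome, PAD in NPC only covered 55.6% of the sequence.

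**Figure D2:**
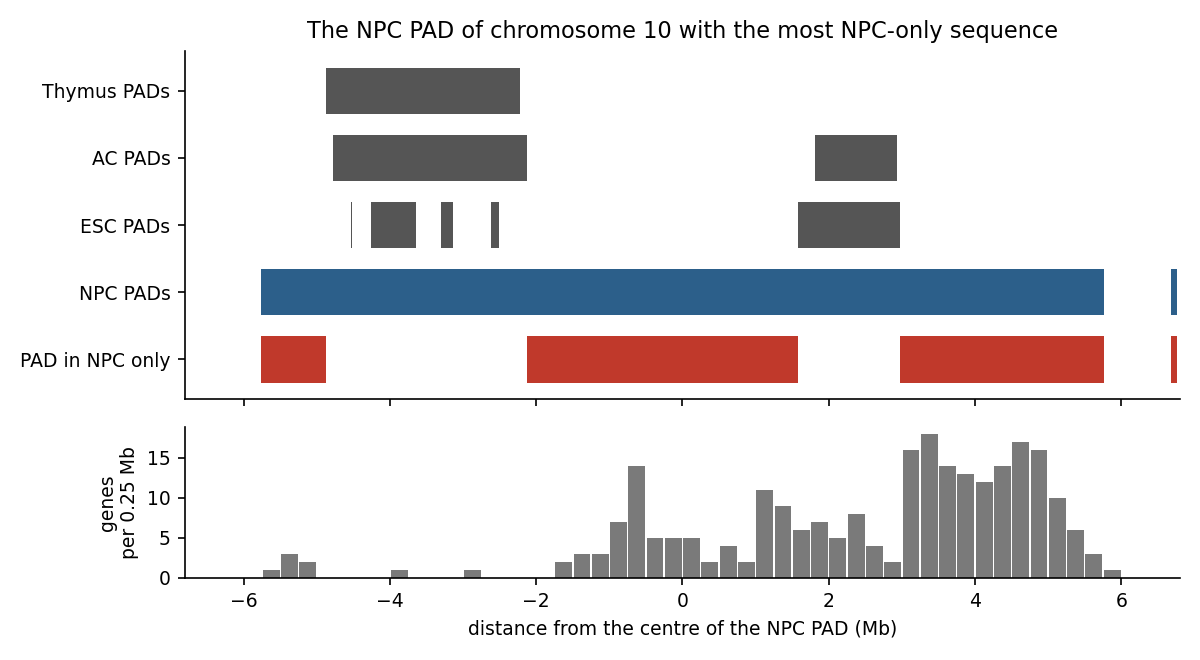
Upper panel, PADs of each cell type (dark bars, NPC in blue) and regions of PAD in NPC only (red) along the NPC PAD of Chromosome 10, by distance from its center in Mb. Lower panel, number of protein-coding gene midpoints of this NPC PAD in bins of 0.25 Mb. The NPC PAD spans 11.5 Mb and bridges the PADs of the other cell types, and most of its 252 genes lie in the second and the third red region.

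The next 4 NPC PADs by this measure had a like composition. On Chromosome 12 (105321360 to 114440253, 9.12 Mb) 7 regions made up 67% of the NPC PAD, which touched 6 ESC PADs, 3 AC PADs and 0 thymus PADs. On Chromosome 2, 4 regions made up 59.4% of a PAD of 9.41 Mb (30676545 to 40085301) and 2 regions made up 50.4% of a PAD of 10.2 Mb (20222141 to 30440596), and these PADs held 93 and 129 genes in NPC-only sequence. On Chromosome 8 (117063778 to 125895043, 8.83 Mb) 8 regions made up 47.4%, with 6 ESC PADs, 5 AC PADs and 0 thymus PADs.

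Composition and gene content were not used by the rule, and they were compared over the 19 autosomes as pairs within chromosomes. PAD in NPC only was richer in genes than the shared PADs, by more than the spread between chromosomes. It held 13.3 protein-coding genes per Mb, against 4.87 in PAD in all 4 cell types and 12.7 in non-PAD in all 4. The log2 ratio to PAD in all 4 averaged 1.51 (SD 0.63, range 0.45 to 3.02) and was above 0 on 19 of 19 chromosomes (permutation test that flips signs, two-sided, with p = 4.0e-05 and an adjusted p of 8.0e-05 over 8 tests). The log2 ratio to non-PAD in all 4 averaged 0.10 (SD 0.45, range -0.62 to 1.29), was above 0 on 11 of 19 chromosomes and did not pass the permutation test (p = 0.34, adjusted p = 0.38). With thymus left out of the rule and of the comparison class alike, the ratio averaged 0.29 and passed (adjusted permutation p = 0.007). The comparison class then also took in sequence that was PAD in thymus only, with 4.47 genes per Mb. PAD in NPC only then took in sequence that was PAD in NPCs and thymus, with 3.92. With all 4 cell types in the rule, densities in PAD in NPC only ran from 7.71 genes per Mb on Chromosome 18 to 27.7 on Chromosome 19.

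GC content was on average higher in PAD in NPC only than in both other patterns, by unequal amounts. It was 45.6% in PAD in NPC only, 39.0% in PAD in all 4 cell types and 44.6% in non-PAD in all 4. The difference from PAD in all 4 averaged 6.65 percentage points (SD 1.31) and was positive on 19 of 19 chromosomes (permutation test, p = 1.0e-05, the smallest these resamples can give, adjusted p = 2.7e-05). The difference from non-PAD in all 4 averaged 1.10 points (SD 0.99, range -0.67 to 2.87) and was positive on 16 of 19 chromosomes (permutation test, p = 1.5e-04, adjusted p = 2.4e-04). CpG dinucleotides followed, with 11.4 per kb against 6.16 in PAD in all 4 and 10.9 in non-PAD in all 4. The log2 ratios averaged 0.90 (SD 0.13, above 0 on 19 of 19 chromosomes, adjusted permutation p = 2.7e-05) and 0.08 (SD 0.13, above 0 on 15 of 19, adjusted permutation p = 0.014).

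Fragment ends were sparser in PAD in NPC only than in PAD in all 4 cell types, with 137 against 174 per Mb. The log2 ratio averaged -0.34 (SD 0.17) and was below 0 on all chromosomes except Chromosome 7, where PAD in all 4 had 123 ends per Mb (adjusted permutation p = 2.7e-05). Against non-PAD in all 4, which had 138 ends per Mb, it averaged -0.01 (SD 0.08, adjusted permutation p = 0.56). Chromosomes are not replicates of a cell culture, and these tests describe the deposited calls only.

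**Figure D3:**
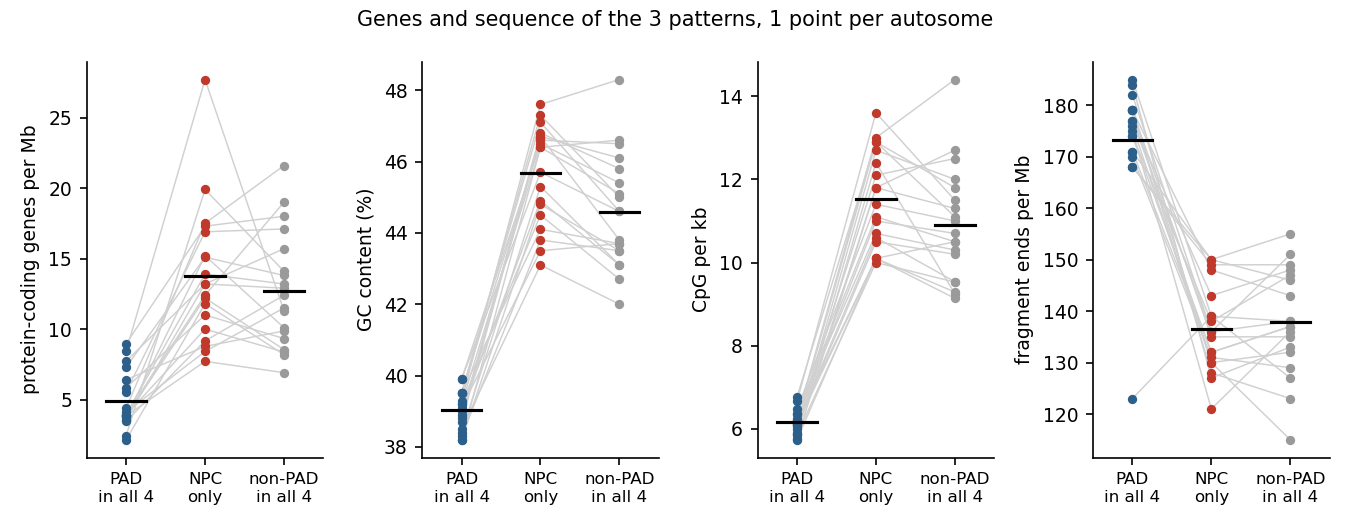
Protein-coding genes per Mb, GC content in percent, CpG per kb and fragment ends per Mb in PAD in all 4 cell types (blue), PAD in NPC only (red) and non-PAD in all 4 (grey), with 1 point for each of 19 autosomes, a line joining the points of an autosome and a black bar at the mean over autosomes; the vertical axes do not start at 0. The red points lie above the blue ones in GC content and CpG on every chromosome and overlap the grey ones.

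PAD in NPC only had the highest pooled GC content of the 16 patterns of calls. Among the patterns with 1 further PAD, that of ESCs and NPCs had 44.5% GC and 14.9 genes per Mb, that of NPCs and ACs 42.8% and 8.41, and that of NPCs and thymus 41% and 3.92. Regions of at least 5 fragment ends (832 of 906) had a median GC content of 44.5%, with the 5th percentile at 39.4% and the 95th at 49.4%. Single regions thus lay on both sides of the 44.6% of non-PAD in all 4 cell types. Few were as low as the 39.0% of PAD in all 4.

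Mean GC content was compared on both sides of the borders. Windows were kept inside the regions that met at a border, so the far bins came from longer regions only. In windows of 20 kb next to the 641 borders with non-PAD in all 4 cell types, the mean GC content was 44.9% within 50 kb inside and 44.9% within 50 kb outside, and it was 45.7% inside and 45% outside at 200 to 400 kb. At the 666 borders with PAD in ESCs and NPCs it was 44.8% inside and 44.5% outside within 50 kb. At the 328 borders with PAD in NPCs and ACs it was 43.5% inside and 43.3% outside within 50 kb, and 44.5% and 43.5% at 200 to 400 kb. Single windows varied with an SD of 3.18 to 3.86 points in every bin, and the differences between the bin means were not tested. Gene sequence covered 51.8% inside and 52.0% outside within 50 kb of the first kind of border.

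**Figure D4:**
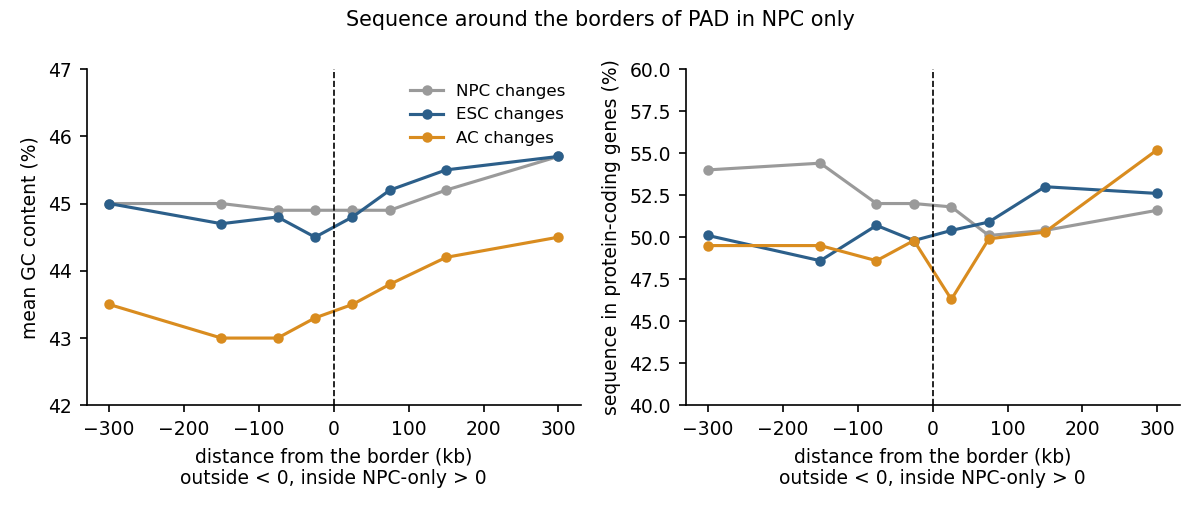
Mean GC content (left) and percentage of sequence in protein-coding genes (right) in 20 kb windows by distance in kb from the borders of PAD in NPC only, with negative distances outside and positive ones inside. Grey marks borders where NPCs change to non-PAD, blue where ESCs and orange where ACs change to PAD; points are drawn at the middle of bins of 50, 50, 100 and 200 kb, and the vertical axes do not start at 0. The grey GC line is at 44.9% within 50 kb on both sides of the border. Windows stayed inside the regions that met there, so the far bins hold longer regions only.

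PAD in NPC only held 5213 of 21397 autosomal protein-coding genes by the midpoint of their longest transcript, which is 24.4% of the genes on 16.2% of the sequence. NPC PADs as a whole held 69.4% of the genes, and 35.1% of these lay in PAD in NPC only. Of the 5213 genes, 4870 (93.4%) lay entirely within 1 region. A gene midpoint lay at a median of 203 kb from the nearer border, 16.2% lay within 50 kb of it and 19.5% beyond 500 kb. The median gene length was 16.8 kb, against 15.6 kb in non-PAD in all 4 cell types and 10.3 kb in PAD in all 4. Most of the genes lay in a minority of the regions. The 154 regions with at least 10 genes contained 71.3% of them, 308 regions had 2 to 9 genes, 150 had 1 and 294 had none. These counts were not adjusted for the size of the regions.

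Promoters in PAD in NPC only were mostly CpG-rich. The 250 bases upstream of the longest transcript held a median of 12 CpG (quartiles 5 and 21), against 11 in non-PAD in all 4 cell types, 3 in PAD in all 4 and 9 over all placed genes. At least 10 CpG were found in 59.3% of the promoters of PAD in NPC only, in 54.2% of those in non-PAD in all 4, in 29.2% of those in PAD in all 4 and in 49.1% of all. The share was higher in PAD in NPC only than in PAD in all 4 on 19 of 19 chromosomes, and higher than in non-PAD in all 4 on 14 of 19, as a description. Of all promoters, 7.36% held no CG.

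The following 4 upstream stretches of 250 bases show the range behind these medians, in mm9 and read 5′ to 3′ on the strand of the gene, with CG in capitals. *Hes5*, *Lmnb2* and *Notch1* lay in large regions of PAD in NPC only, and *Maml2*, a coactivator of Notch signaling, was the member of the Notch list in PAD in all 4 cell types.
Hes5, chr4:154334782-154335031, plus strand: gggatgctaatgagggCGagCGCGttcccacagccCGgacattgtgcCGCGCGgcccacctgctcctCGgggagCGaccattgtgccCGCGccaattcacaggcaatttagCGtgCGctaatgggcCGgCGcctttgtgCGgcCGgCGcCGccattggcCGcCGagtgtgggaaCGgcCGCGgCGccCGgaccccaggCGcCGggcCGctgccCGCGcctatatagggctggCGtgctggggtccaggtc
Lmnb2, chr10:80380991-80381240, minus strand: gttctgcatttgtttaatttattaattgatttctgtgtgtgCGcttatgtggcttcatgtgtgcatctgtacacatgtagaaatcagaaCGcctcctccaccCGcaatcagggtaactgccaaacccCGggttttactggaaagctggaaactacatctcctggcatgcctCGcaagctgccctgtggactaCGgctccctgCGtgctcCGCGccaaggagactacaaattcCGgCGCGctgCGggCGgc
Notch1, chr2:26372157-26372406, minus strand: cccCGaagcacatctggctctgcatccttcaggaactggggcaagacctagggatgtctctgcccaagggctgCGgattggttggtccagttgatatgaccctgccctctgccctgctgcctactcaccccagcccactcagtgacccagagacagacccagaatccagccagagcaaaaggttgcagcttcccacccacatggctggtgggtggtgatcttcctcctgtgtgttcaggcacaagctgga
Maml2, chr9:13424184-13424433, plus strand: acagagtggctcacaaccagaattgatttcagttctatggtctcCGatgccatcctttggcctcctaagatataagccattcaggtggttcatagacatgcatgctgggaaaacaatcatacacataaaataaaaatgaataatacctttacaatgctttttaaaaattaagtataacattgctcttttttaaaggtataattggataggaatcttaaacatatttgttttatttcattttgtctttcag
They held 32, 14, 2 and 1 CpG with a GC content of 71.6%, 52.8%, 58.8% and 32.0%. Each stretch belongs to the longest annotated transcript, which need not start at the most used promoter of a gene. The low counts of *Notch1* and *Maml2* are given with that limit, and whether either stretch is a promoter in use was not tested.

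Of 35 placed genes of the list of neural precursor genes, 5 (14.3%) lay in PAD in NPC only, against 24.4% of all genes. The housekeeping, neuronal and oligodendrocyte lists had 15.0% to 16.7%. A further 10 neural precursor genes lay in non-PAD of all 4 cell types, which held 19.7% of all genes. The 5 were *Nes*, which encodes the intermediate filament nestin, *Hes5*, the inhibitor of differentiation gene *Id1*, the zinc finger gene *Zbtb16* and *Rfx4*, a transcription factor of the developing brain. *Nes* (Chromosome 3, 87775015 to 87784373) lay 13.0 kb from the border of a region of 1040 kb and *Hes5* (Chromosome 4, 154335032 to 154336480) 1293 kb from the border of a region of 3221 kb. *Id1* (Chromosome 2, 152561987 to 152563146) lay 301 kb inside a region of 2154 kb and *Rfx4* (Chromosome 10, 84218807 to 84368889) 236 kb inside one of 1868 kb. *Zbtb16* crossed a border. *Sox2*, *Hes1* and *Sox4* were PAD in both ESCs and NPCs, *Pax6* and *Vim* were PAD in all 4, and *Olig2*, *Msi1* and *Nr2e1* were PAD in none.

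The Notch pathway transmits signals between neighboring cells, from Delta and Jagged ligands through Notch receptors that gamma-secretase cleaves to Hes and Hey targets, and it maintains neural precursors. Of 35 genes of the list, 10 (28.6%) lay in PAD in NPC only, in 9 regions, close to the 24.4% of all genes. They were the receptors *Notch1*, *Notch2* and *Notch4*, the gamma-secretase subunits *Psen2* and *Psenen*, the targets *Hes5*, *Hes6* and *Hey1*, and the ubiquitin ligase genes *Mib2* and *Dtx2*. None of the ligands of the list was among them, since *Dll1* and *Jag1* were PAD in ESCs, NPCs and ACs, *Dll3* and *Jag2* in ESCs and NPCs and *Dll4* in no cell type. *Notch1* (Chromosome 2, 26313426 to 26372156) lay 1145 kb from the border of the largest region. *Notch4* (Chromosome 17, 34701213 to 34725448) lay 241 kb from the border of a region of 907 kb, and *Notch2* (Chromosome 3, 97817461 to 97954290) crossed the border of a region of 1098 kb. *Psen2* and *Psenen* lay in regions of 255 and 234 kb, near the median size.

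Of 18 genes of the hedgehog pathway, which patterns the neural tube through Smoothened and the Gli factors, 6 (33.3%) lay in 6 regions, against 24.4% of all genes. These were the ligands *Ihh* and *Dhh*, the transcription factor *Gli2*, the coreceptor *Gas1*, the kinase gene *Stk36* and the receptor gene *Gpr161*. *Gas1* (Chromosome 13, 60275766 to 60278726) lay 376 kb inside a region of 2325 kb and *Gli2* (Chromosome 1, 120730709 to 120950196) 124 kb inside one of 641 kb. *Ptch1*, *Smo*, *Gli1* and *Sufu* were non-PAD in all 4 cell types, *Gli3*, *Hhip* and *Cdon* were PAD in all 4, and *Shh* was PAD in NPCs and thymus. *Gli3* crossed a border and was non-PAD in ESCs by its transcription start site. By start site *Hhat* joined PAD in NPC only, which made 7 genes.

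The list of heterochromatin and lamina genes had the highest share of the lists, with 16 of 33 placed genes (48.5%) in 15 regions against 24.4% of all genes. Of its genes, 2 were non-PAD in all 4 cell types, against 19.7% of all genes, and 1 was PAD in all 4, against 14.8%. NPC PADs held 30 of the 33, against 69.4% of all genes. Among the 16 were the HP1 genes *Cbx1* and *Cbx3*, the DNA methyltransferase gene *Dnmt3b*, the histone methyltransferase gene *Suv420h1*, the histone chaperone gene *Daxx*, the centromeric histone gene *Cenpa*, *Mbd3* and *Hdac3*. The others encode proteins of the nuclear envelope and lamina, with the lamin genes *Lmna*, *Lmnb1* and *Lmnb2*, the lamin B receptor gene *Lbr*, and *Tmpo*, *Banf1*, *Sun1* and *Sun2*. *Lmnb2* (Chromosome 10, 80363948 to 80380990) lay 1374 kb from the nearer border, *Banf1* (Chromosome 19, 5364641 to 5366645) 1130 kb and *Cbx1* (Chromosome 11, 96650473 to 96669954) 98.1 kb. *Sun2* lay in a region of 202 kb that was an NPC PAD of its own. *Daxx*, *Lmnb1* and *Suv420h1* crossed a border, and by their transcription start sites *Daxx* and *Lmnb1* were PAD in both ESCs and NPCs, which left 14 genes. The file holds no expression, and no test of a list was made. This share is the highest of 24 lists and families, which were chosen with earlier results of these data known.

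The other lists of cell type and housekeeping genes ran from 15.0% to 33.3%, on both sides of the 24.4% of all genes. Of 18 astrocyte genes, 6 (33.3%) lay in PAD in NPC only, namely *Gfap* and *Cd44*, the glutamate transporter gene *Slc1a2*, *S100b*, the transcription factor gene *Nfia* and *Clu*. *Slc1a2* and *Cd44* are neighbors in a region of 581 kb, and *S100b* lay 1847 kb from the border of its region. Of 22 pluripotency genes, 5 (22.7%) did, namely *Pou5f1*, *Esrrb*, *Dppa5a*, *Tdgf1* and *Dnmt3l*. The region of *Pou5f1* (Chromosome 17, 35449341 to 35687954, 239 kb) rested on only 6 fragment ends. *Nanog* was PAD in all 4 cell types and *Klf4* in none. Of 25 T cell genes, 6 (24.0%) did, namely *Bcl11b*, *Runx1*, *Runx3*, *Satb1*, *Tcf7* and *Zap70*, of which *Runx1* and *Satb1* left the pattern when placed by transcription start site. The neuronal list had 4 of 25 (16.0%; *Gad1*, *Nrxn2*, *Rbfox3* and *Syt1*, which all crossed a border, and without *Syt1* by transcription start site), the oligodendrocyte list 2 of 12 (16.7%; *Cnp* and *Mobp*) and the housekeeping list 3 of 20 (15.0%; *Eef1a1*, *Eef2* and *Tfrc*).

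Gene families differed more than the lists did. Wnt ligands and frizzled receptors had 12 of 29 members (41.4%) in 10 regions, and *Wnt1* and *Wnt10b*, which are neighbors, shared a region of 527 kb on Chromosome 15 with *Dhh*. Fgf ligands and receptors had 8 of 24 (33.3%), solute carriers 112 of 341 (32.8%), ribosomal proteins 25 of 78 (32.1%, in 25 regions), cyclins and their kinases 8 of 26 (30.8%), keratins 13 of 46 (28.3%, in only 3 regions) and proteasome subunits 10 of 38 (26.3%). Defensins had 11 of 53 (20.8%), all in 1 region of 2154 kb on Chromosome 2 that also held *Id1* and *Dnmt3b*. Several other families were at lower shares. Of 39 *Hox* genes none lay in PAD in NPC only, and 29 lay in NPC PADs, which held 69.4% of all genes. Clustered histone genes had 1 of 67 (1.49%), vomeronasal receptors 16 of 318 (5.03%), protocadherins 2 of 34 (5.88%) and genes with *Zfp* symbols 48 of 353 (13.6%). Olfactory receptors had 27 of 1081 (2.5%), and 584 of the 1081 were PAD in all 4 cell types, against 14.8% of all genes. Members of a cluster share their position and are not independent.

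**Figure D5:**
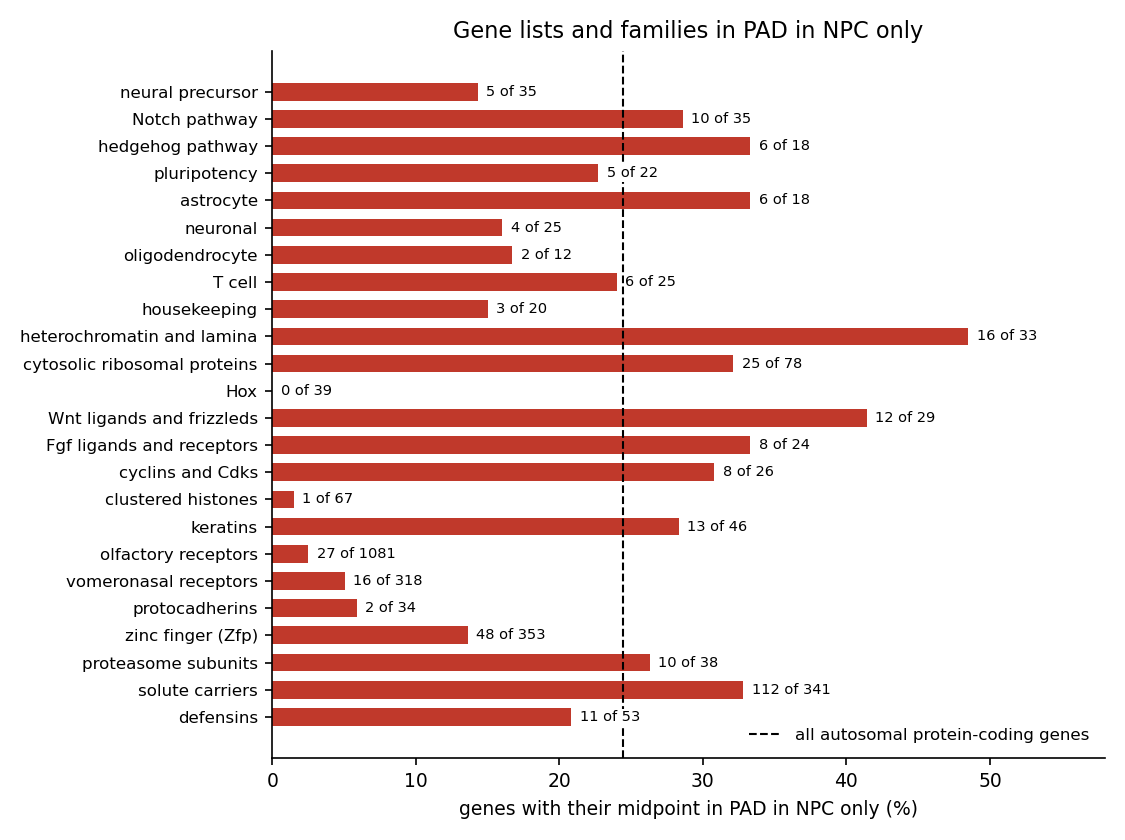
Percentage of the placed genes of each of 24 lists and families with their midpoint in PAD in NPC only, with the counts beside the bars. The dashed line marks the 24.4% of all autosomal protein-coding genes, and the bars run from 0 of 39 *Hox* genes to 16 of 33 heterochromatin and lamina genes.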

How the data were processed

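The deposited calls (PAD or nPAD, a word without a scale, unit other) cover 399232 fragment ends in 4 columns, 1 per cell type. The authors mapped the reads to mm9 fragment ends, leaving out the Y chromosome, fitted a two-state hidden semi-Markov model per replicate with mhsmm in R and took the majority call, with ties settled by a model of the pooled reads. For the aligner, nothing is given in the sources used here. The values carry no replicate error.

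Regions, genes (GENCODE vM1) and sequence (NCBIM37, which is mm9) were joined in Python (3.11.15; numpy 2.4.6, pandas 2.3.3, scipy 1.17.1). Outside the called sequence lay 21 autosomal protein-coding genes. For repeated symbols the longest entry was used. Contrasts were sign-flip permutation tests over 19 autosomes (100000 resamples, two-sided), Benjamini-Hochberg adjusted over 8 tests with a threshold of 0.05. Procedures were tested on simulated calls. Named were the 10 largest regions, the 5 NPC PADs with the most NPC-only sequence, loci the study draws and list members. Members and lists were chosen with earlier results of these data known. Border profiles, promoter counts, printed sequences and the naming of list genes with other patterns were chosen after seeing the data. The calls of some list genes are not reported here. Alternatives were outer borders, short runs absorbed, gaps left out, fragment ends as unit, thymus left out and other gene placements.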

Additional observations from a re-analysis of the deposited data

How the results depend on the processing

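Coverage of PAD in NPC only was 16.2% and moved to 16.4% without gaps over 100 kb, to 14.2% as a share of fragment ends and to 18.3% with thymus left out of the rule. Leaving thymus out also redefined shared PAD and shared non-PAD, which then meant the same call in ESCs, NPCs and ACs. The log2 ratio of gene density to shared non-PAD was then 0.29 (adjusted permutation p = 0.007). It passed the threshold that the value with all 4 cell types, 0.10, had missed. The number of regions was 843 with runs under 5 fragment ends absorbed, 888 without regions of 1 end and 1071 without thymus, against 906. The median size was 246 to 267 kb under its 3 alternatives. Genes numbered 5183 by transcription start site, 5575 by any overlap and 5213 with short runs absorbed. The other 7 contrasts of genes and sequence kept their direction and their side of the threshold under every alternative run, but leaving out thymus moved 4 of them by over 1.5 times. Gene density against shared PAD went from 1.51 to 0.96 (log2), GC content against shared non-PAD from 1.10 to 1.91 percentage points, CpG against shared non-PAD from 0.08 to 0.19 (log2) and fragment end density against shared non-PAD from -0.01 to -0.05 (log2; adjusted permutation p from 0.56 to 0.05, just short of passing). No paired analysis was possible because the file holds 1 consensus column per cell type and none per replicate, and for the same reason no replicate could be left out. The depth behind the calls is unknown, and chromosomes are not biological replicates.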

Other observations

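Chromosome X was outside the rule. On it, 50 regions with the same pattern covered 10.3 Mb, or 6.30% of its called sequence, with a median of 152 kb and a largest region of 0.881 Mb. NPC PADs covered 48.7% of Chromosome X, less than the lowest autosome (56.2%, Chromosome 5), and 16.8% of it was non-PAD in all 4 cell types.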
